A study of Mus musculus with 7 samples.

Results

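The genes of the renin-angiotensin system were examined in mouse prostate that over-expresses the Notch1 intracellular domain. They were Ren1 and Ren2, the renin genes, with Agt, Ace, Agtr1a, Agtr2 and Atp6ap2. Every probe whose accession maps to 1 of these 7 genes was taken, which gave 10 probes of the 41174 on the array. The array carried 17016 named genes. The genes were selected on the log2 ratios of the same PB-NICD and control arrays, where renin was among the strongest differences, so the differences of these 7 genes are given as descriptions, without a test.

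The 3 PB-NICD samples came from prostates of mice with the ARR2PB-Cre transgene and the ROSA(N1IC) allele. In this model a prostate-specific promoter drives Cre recombinase, which turns on the domain at the ROSA locus, and the labels state that prostatic intraepithelial neoplasia develops. The 4 control samples came from ROSA(N1IC) prostates, labelled as wild-type for the domain, so both groups carry this allele. All mice were of the C57Bl/6 strain, and the labels give no age and do not say whether each sample is 1 animal. Each sample had its own 2-colour array, with prostate cDNA in the red channel and universal mouse reference RNA in the green channel. The dyes were not swapped. Values are log2 ratios of prostate over reference, and a difference is PB-NICD minus control, taken between group means. RNA came from prostate tissue, in which fewer cells of a type and less RNA per cell cannot be told apart.

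Renin is an aspartic protease that cuts angiotensinogen, the product of Agt, to angiotensin I. Angiotensin-converting enzyme, the product of Ace, turns this peptide into angiotensin II, which acts through the receptors encoded by Agtr1a and Agtr2 to raise vessel tone and salt retention. Renin is best known from the juxtaglomerular cells of the kidney, and in mice also from the submandibular gland, where androgens raise it. In kidney renin cells of the mouse, RBP-J, the DNA-binding factor of the Notch pathway, acts on the renin gene. Many mouse strains carry the duplicated gene Ren2 beside Ren1. The C57Bl/6 strain carries Ren1 alone, so the Ren2 probe and the Ren1 probes may read the same transcript here.

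Of the 7 genes, 5 have a promoter in the RefSeq table used, and these account for 6 windows of 250 bases before to 50 bases after the start. Ren1 is shown because renin carries the main difference described. Its window lies at chr1:133350424-133350723 on the plus strand of GRCm38.p6. The capitals mark, from left to right, the core bound by RBP-J, a HOX-PBX element and a TATA box. The first and second read on the other strand.
Ren1 promoter: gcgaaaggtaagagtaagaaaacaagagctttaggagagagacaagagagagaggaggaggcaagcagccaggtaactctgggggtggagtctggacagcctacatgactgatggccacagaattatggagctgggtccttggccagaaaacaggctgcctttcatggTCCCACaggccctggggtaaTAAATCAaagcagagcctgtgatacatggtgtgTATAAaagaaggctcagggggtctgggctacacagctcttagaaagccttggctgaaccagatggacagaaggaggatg

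The RBP-J core spans bases -82 to -77 from the start, the HOX-PBX element bases -62 to -56 and the TATA box bases -29 to -25. The motifs, searched on both strands with no overlap among these 3 matches, were chosen with this sequence known. The RBP-J core was searched as GTGGGA, which occurs in 21.8% of the 32851 promoters of the table. The HOX-PBX element was searched as TGATTTA, which occurs in 2.97% of them. The TATA box was searched as TATAA, which occurs in 24.9% of them. None of the other 5 member windows holds the RBP-J core or the HOX-PBX element. Part of a cAMP response element was searched as TGACG, which occurs in 20.8% of promoters. It matches in the Atp6ap2 window and not in that of Ren1. Part of an androgen receptor site was searched as AGAACA, which occurs in 19% of promoters. This too matches in the Atp6ap2 window and not in that of Ren1. These are descriptions of letters, and binding was not measured.

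The arrays were dim in the prostate channel. The median prostate signal was 88 or more on the PB-NICD arrays and 69 to 87.5 on the control arrays, over a median background of 53 to 55. The share of probes well above background was 53.19% to 66.78% on PB-NICD arrays and 44.78% to 60.71% on control arrays. The number of arrays limits the precision. Arrays correlated at r = 0.834 to 0.954 within PB-NICD, at 0.927 to 0.962 within control and at 0.778 to 0.904 between the groups, as a description over 10387 items. The array labelled PB-NICD 1 correlated at 0.834 with PB-NICD 2 and with PB-NICD 3. With controls 3 and 4, PB-NICD 2 correlated at 0.868 and 0.864 and PB-NICD 3 at 0.898 and 0.904. These 2 arrays were thus more like those controls than like PB-NICD 1. The arrays lay on 2 slides. Slide 1 held the array labelled PB-NICD 1 with controls 1 and 2, and slide 2 held PB-NICD 2 and 3 with controls 3 and 4.

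Notch1 itself checks the labels. Its log2 ratio was 2.58 and 2.71 on PB-NICD 2 and 3, against 0.05, 0.30, 0.77 and 0.66 on the controls. On the array labelled PB-NICD 1 the Notch1 spot was an outlier spot, left out of the fit, and read 0.64, inside the control range. The Notch target Heyl was 1.56, 2.69 and 2.56 on PB-NICD arrays, against -0.24, -0.15, -0.23 and -0.05 on controls. The Notch target Hes1 was likewise above all controls on all 3. The array labelled PB-NICD 1 thus stood apart from the other 2 for Notch1 and in the correlations above. Differences without it are also given for some of the genes, not for all.

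The 3 renin probes were lower on every PB-NICD array than on every control array. The brightest, the Ren1 probe A_52_P544060, was well above background on all 7 arrays. Its prostate signal was 729, 1000.5 and 1047 on the arrays labelled PB-NICD 1, 2 and 3, against 1987.5, 2291.5, 6847 and 6489 on controls 1 to 4. The lowest control signal was thus above the highest PB-NICD signal, and the controls of slide 2 were above those of slide 1. The reference signal of this probe was 5205 to 6463 on PB-NICD arrays and 5737.5 to 7642 on control arrays.

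As a log2 ratio, this Ren1 probe read -0.30 and -0.14 on PB-NICD 2 and 3, against 2.62 and 3.01 on controls 2 and 4. The other 3 spots were marked as outliers, set to missing in the fit, and read -0.44 on the array labelled PB-NICD 1, against 2.44 and 3.11 on controls 1 and 3. All PB-NICD ratios lay near 0 and all control ratios were above 2.4, with or without the outlier spots. The mean was -0.22 ± 0.11 (SD, n = 2) in PB-NICD prostates and 2.82 ± 0.28 (SD, n = 2) in controls, a difference of -3.04 ± 0.21 (SE), or 8.20-fold lower. With the outlier spots kept the difference was -3.04.

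The other Ren1 probe, A_51_P316661, was at background in PB-NICD prostates. Its prostate signal minus local background was 12, 9 and 10.5 on PB-NICD arrays, against 728, 1188.5, 3404 and 3710.5 on control arrays. It was well above background on 0 of 3 PB-NICD arrays and on 4 of 4 control arrays. No PB-NICD signal came near a control signal.

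The log2 ratio of this probe was 0.00, 0.23 and -0.36 on PB-NICD arrays, against 6.29, 6.99 and 7.58 on controls 1, 2 and 4. Control 3 was an outlier spot that read 7.72. The mean was -0.04 ± 0.30 (SD, n = 3) in PB-NICD prostates and 6.96 ± 0.65 (SD, n = 3) in controls, a difference of -7.00 ± 0.31 (SE). The reference channel was itself dim for this probe, with signals of 45 to 220 on PB-NICD arrays and 48.5 to 127.5 on control arrays, and was well above background on 3 of the 7 arrays.

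The ratio therefore has a dim denominator as well, so a bound was also taken in the prostate channel. The normalization of that channel used both channels, so the bound is not free of the reference. In the prostate channel the level in PB-NICD prostates was at least 46.2-fold lower than in controls, with normalised log2 means of 6.74 and 12.37. Such a bound sets the control mean against the higher of the probe's own PB-NICD signal and the lowest signal well above background on each array, and it is open to dye bias.

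The Ren2 probe A_52_P192265 was also at background in PB-NICD prostates. Its prostate signal was 66, 66 and 66.5 on PB-NICD arrays, against 289, 352, 1097 and 1043 on control arrays, and its reference signal was 143 to 157.5 on PB-NICD arrays and 117 to 145.5 on control arrays. It was well above background on 0 of 3 PB-NICD arrays and on 4 of 4 control arrays. The PB-NICD signals were nearly equal to each other, while the control signals spread over both slides.

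The Ren2 log2 ratio was -0.02, -0.06 and -0.17 on PB-NICD arrays, against 3.65, 3.99, 5.40 and 5.38 on control arrays. The mean was -0.09 ± 0.08 (SD, n = 3) in PB-NICD prostates and 4.61 ± 0.92 (SD, n = 4) in controls, a difference of -4.69 ± 0.41 (SE). In the prostate channel the level was at least 14.6-fold lower in PB-NICD prostates than in controls, with normalised log2 means of 6.90 and 10.76.

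**Figure D1:**
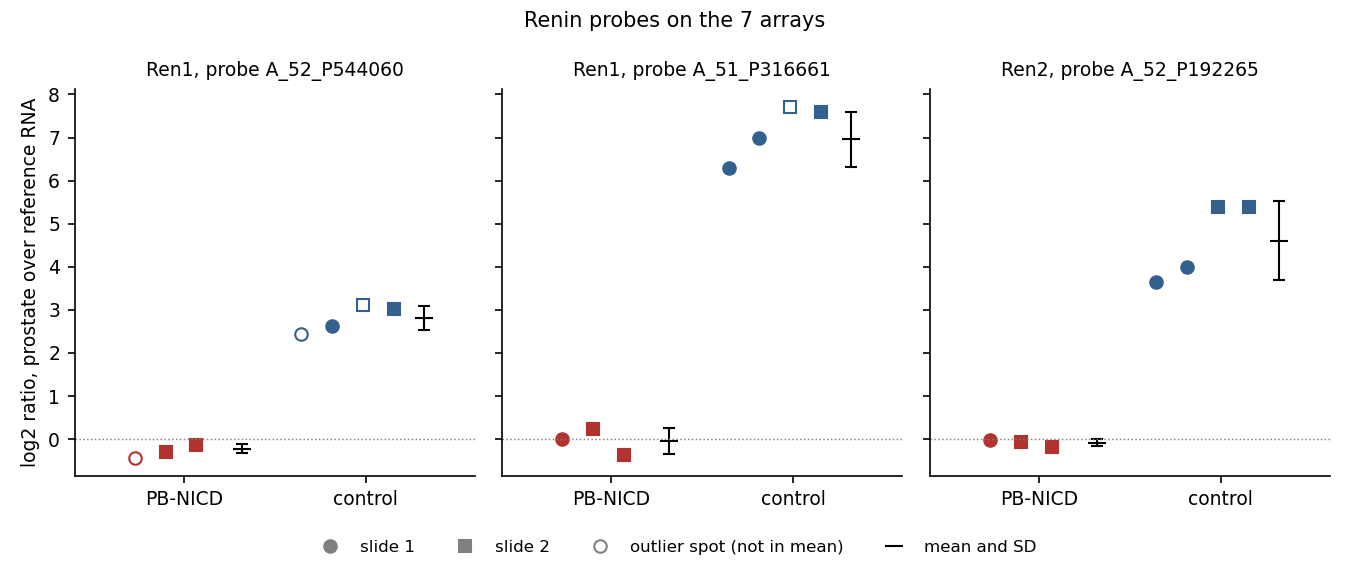
The log2 ratio of prostate over reference is plotted for each of the 3 renin probes on each array, PB-NICD left of control, with bars for the group mean and SD, circles for slide 1, squares for slide 2 and open symbols for outlier spots, which are not in the mean. Every PB-NICD point lies near 0, and every control point lies at 2.44 or above.

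**Figure D2:**
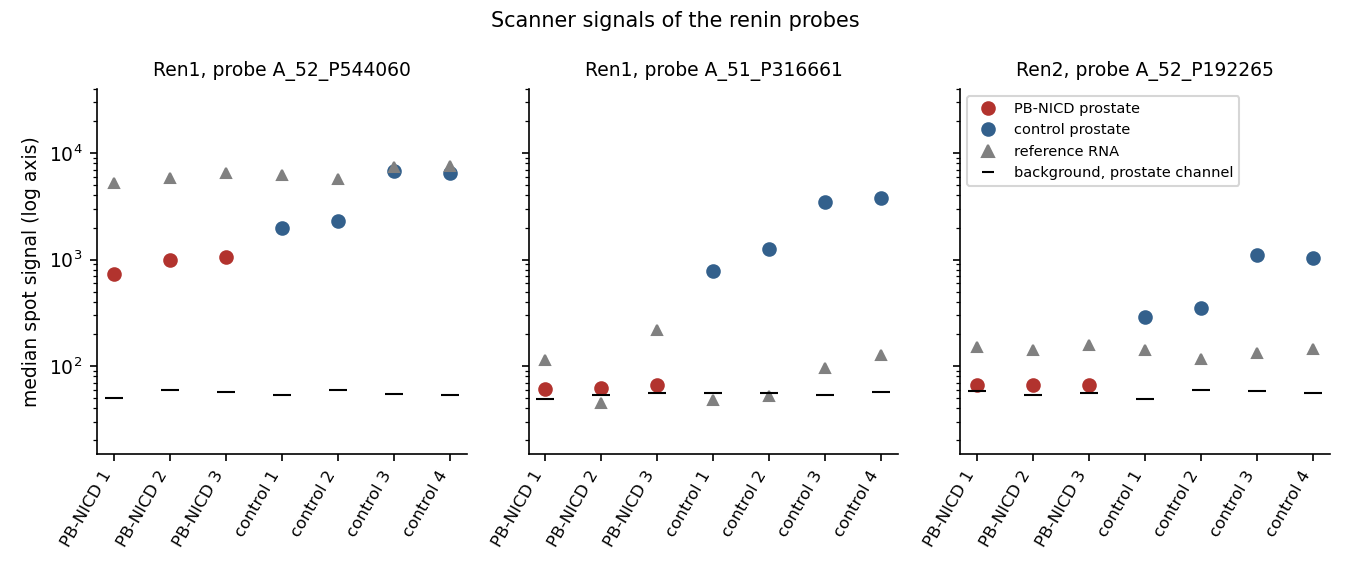
The prostate-channel spot signal of the 3 renin probes is plotted for each array on a log axis, PB-NICD left of control, with triangles for the reference signal and dashes for the prostate-channel background. The second Ren1 probe and the Ren2 probe sit between 61 and 66.5 on PB-NICD arrays, against 289 or more on control arrays, while the brightest Ren1 probe stays at 729 or above on PB-NICD arrays.

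The 3 probes differed in the size of the difference, not in its direction. The probe with the smallest difference is the one with a bright reference channel, and the other 2 are those with a PB-NICD signal at background. The signal of the brightest Ren1 probe on PB-NICD arrays, at 729 to 1047, lay far above the local background of 50 to 60. The levels of different probes are not compared, and which part of the transcript each probe reads was not known here.

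Within slides the direction held. With outlier spots kept, the difference of the brightest Ren1 probe was -2.98 on slide 1 and -3.20 on slide 2. That of the other Ren1 probe was -6.67 on slide 1 and -7.74 on slide 2, and that of Ren2 was -3.86 on slide 1 and -5.59 on slide 2. The control arrays of slide 2 exceeded those of slide 1 by 0.53 for the brightest Ren1 probe, by 1.01 for the other and by 1.62 for Ren2, whereas the median shift of 11880 items was 0.01 with quartiles of -0.15 and 0.18. Slide 2 controls were thus higher in renin than slide 1 controls by more than these quartiles, and what sets the slides apart was not tested.

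Without the array labelled PB-NICD 1, the differences were -7.02 for the second Ren1 probe and -4.72 for Ren2. The brightest Ren1 probe was an outlier spot on that array, already missing from the fit, so its -3.04 could not move. The renin signals on that array were as low as those on PB-NICD 2 and 3, although its Notch1 reading was not raised.

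Across all 10 member probes, 4 had every PB-NICD array below every control array, 0 had every PB-NICD array above, and 6 overlapped. Over all 16939 items tested, 13.3% had every PB-NICD array below every control array and 5.32% had every one above. The rule used this contrast, so nothing is read from the members' count. Besides the renin probes, the fourth probe was one of Ace.

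Ace encodes the enzyme that makes angiotensin II. The Ace probe A_52_P68028 was bright on all 7 arrays. Its log2 ratio was 1.73 and 2.04 on the array labelled PB-NICD 1 and on PB-NICD 3, and 1.92 on the outlier spot of PB-NICD 2, against 3.60, 3.08, 3.52 and 3.09 on control arrays. The PB-NICD ratios were below all control ratios. The mean was 1.89 ± 0.22 (SD, n = 2) in PB-NICD prostates and 3.32 ± 0.28 (SD, n = 4) in controls, a difference of -1.43 ± 0.21 (SE), or 2.70-fold lower. Without the array labelled PB-NICD 1, which left PB-NICD 3 alone in its group, the difference was -1.28.

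The spot signals of this probe, before any normalization, overlapped between groups. They were 1623, 2542.5 and 2338.5 on PB-NICD arrays, against 2147, 1757, 4148 and 3110 on control arrays. The separation is thus seen in the normalised ratio and not in the unscaled signal. The difference lay between -1.67 and -1.24 under all 22 alternative settings, but none of them used the unscaled signal.

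The second Ace probe, A_52_P72297, gave a less clear picture. Its ratio was 3.91 and 4.38 on PB-NICD 2 and 3, against 3.74, 4.15, 5.72 and 5.52 on control arrays. The groups overlapped, and the difference was -0.64 ± 0.54 (SE). The array labelled PB-NICD 1 had an outlier spot that read 0.68, and with all outlier spots kept the difference was -1.81. It was -0.33 without control 3 and -0.39 without control 4. The reference channel of this probe was well above background on only 3 arrays.

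Atp6ap2 encodes the prorenin receptor, which is also an accessory protein of the vacuolar proton pump. Its log2 ratio was 0.91, 1.82 and 1.76 on PB-NICD arrays, against 0.92, 1.13 and 1.37 on controls 2, 3 and 4, with an outlier spot at 1.15 on control 1. The array labelled PB-NICD 1 lay at the lower end of the controls and the other 2 lay above all of them. The difference was 0.36 ± 0.25 (SE). It was 0.65 without the array labelled PB-NICD 1, 0.19 without PB-NICD 2 and 0.23 without PB-NICD 3.

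The angiotensin II receptor Agtr1a, which mediates most vascular actions of the peptide, had 2 probes. The brighter, A_51_P236439, was well above background on all 7 arrays and had log2 ratios of -0.08, 0.04 and -0.03 on PB-NICD arrays, against 0.05, 0.18, -0.12 and 0.05 on control arrays. The groups overlapped and differed by -0.06 ± 0.12 (SE). The dimmer, A_52_P645862, was well above background on 2 of 3 PB-NICD arrays and 1 of 4 control arrays. Its difference was 0.16 ± 0.30 (SE), with overlapping groups. Single arrays set this value: it was 0.64 without the array labelled PB-NICD 1, -0.33 without PB-NICD 3 and -0.0048 without control 1.

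Agtr2, the second angiotensin II receptor, was well above background on none of the 7 arrays. Its signal was 56, 57 and 57 on PB-NICD arrays, against 58.5, 53, 58 and 61 on control arrays, so no level can be given. The probe did not pass the filter on dim probes.

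Agt, the gene of the renin substrate, was near background in both groups. Its signal was 67, 80 and 80 on PB-NICD arrays, against 59, 58, 71 and 66 on control arrays, and it was well above background on 1 of 3 and 1 of 4 arrays. The groups overlapped in their log2 ratio, with a difference of 0.18 ± 0.13 (SE), and the probe did not pass the filter on dim probes. A change in Agt was not detectable at this signal.

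**Figure D3:**
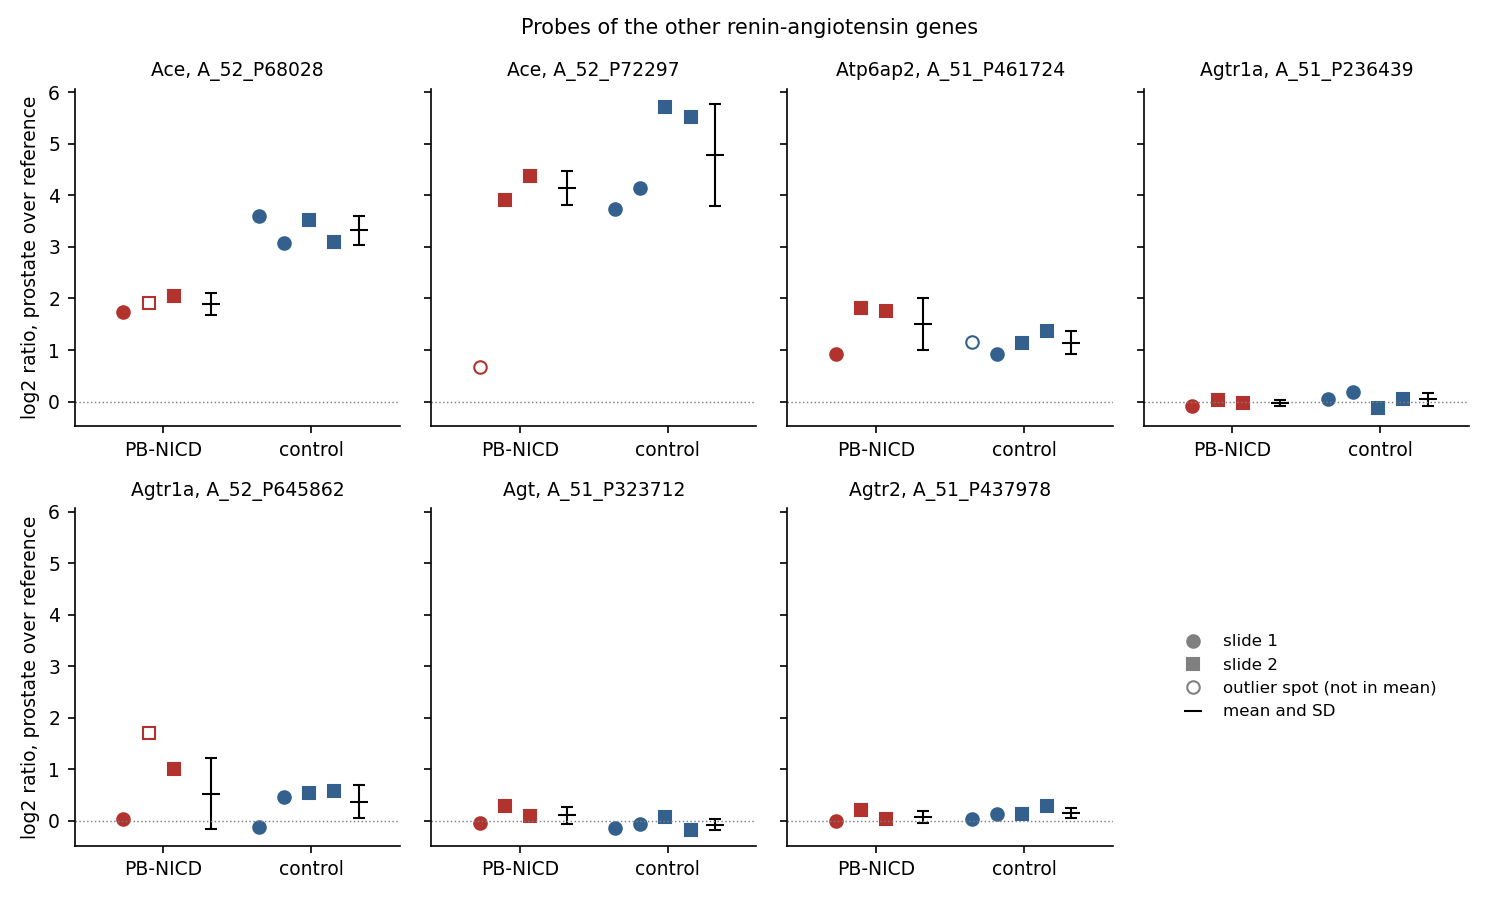
The log2 ratio of prostate over reference is plotted per array for the 7 probes of Ace, Atp6ap2, Agtr1a, Agtr2 and Agt, PB-NICD left of control, with bars for the group mean and SD and open symbols for outlier spots. Of these probes, only Ace A_52_P68028 has all PB-NICD points below all control points, at 1.73 to 2.04 against 3.08 to 3.60.

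Other genes of the pathway were taken from a list of 29 genes that process angiotensin peptides or kinins, bind them, or act in the aldosterone branch. Of these, 27 were on the array and 22 were tested. By limma with Benjamini-Hochberg adjustment over all items, 0 rose, 1 fell and 21 did not pass. Over all items tested, 2.31% fell and 0.413% rose, or 2.72% in all. The median difference of the 22 genes was -0.11, beside -0.04 for all items. At an unadjusted p under 0.05 there were 2 higher and 5 lower, beside 3.15% and 11.3% of all items, or 14.5% either way.

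The gene that fell was Prcp, a carboxypeptidase that removes the last amino acid of angiotensin II. Its log2 ratio was 0.28, -0.03 and 0.56 on PB-NICD arrays, against 1.64, 1.60, 1.58 and 2.01 on control arrays. Every PB-NICD array was below every control array. The difference was -1.44 ± 0.17 (SE), with an adjusted p of 0.00245 by limma. A second tested probe of Prcp differed by -0.03, so the probes disagree.

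Mme, or neprilysin, which makes angiotensin 1-7 from angiotensin I, had the highest difference in the list but did not pass. Its log2 ratio was 2.03, 6.10 and 5.59 on PB-NICD arrays, against 2.53, 2.04, 3.05 and 3.25 on control arrays. PB-NICD 2 and 3 were above all controls, while the array labelled PB-NICD 1 lay at the level of the lowest control. The difference was 1.86 ± 0.82 (SE), with an adjusted p of 0.337 by limma. Within slide 2, which does not hold that array, it was 2.70 ± 0.20 (SE), with an adjusted p of 0.000441 by limma, among 5.57% of items called in that fit. Without that array it was 3.13 ± 0.30 (SE), with an adjusted p of 0.000249 by limma, among 7.03% of items called either way in that fit. Leaving out the array also brought Klk1, a tissue kallikrein that releases kinins, past the threshold, at 0.72 (adjusted p = 0.0308 by limma) against 0.61 with all arrays (adjusted p = 0.11). A second Klk1 probe differed by 0.03. Within slide 2 only this second probe could be tested, and it differed by 0.08 (adjusted p = 0.866 by limma).

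The receptor gene Agtr1b differed by 0.24 and Agtrap, which binds the type 1 receptor, by -0.08. The aminopeptidases Lnpep and Anpep differed by -0.26 and -0.32. None of these 4 passed the test. Mas1, the receptor for angiotensin 1-7, and Enpep, the aminopeptidase that makes angiotensin III, were well above background on no array.

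**Figure D4:**
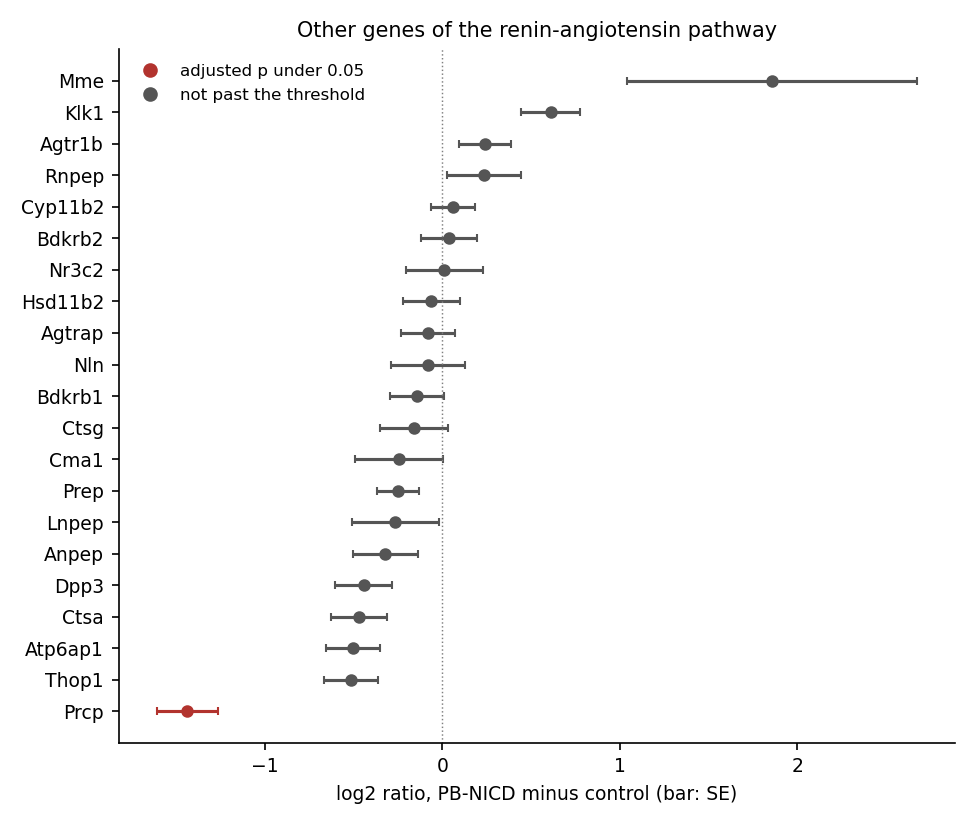
The difference of PB-NICD minus control in log2 ratio is plotted with its standard error for 21 of the 22 tested genes of the pathway list. Prcp, at -1.44, is the one that passed the test, and Mme, at 1.86, has a standard error of 0.82.

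Renin belongs to the pepsin-like aspartic proteases, and 7 of 9 listed family members without the renin genes were tested. None passed, with 1 at an unadjusted p under 0.05, beside 14.5% of all items, and their median difference was 0.08. Ctsd, the lysosomal cathepsin D, read 0.09, -0.20 and 0.64 on PB-NICD arrays, against 0.58, 1.17 and 0.94 on controls 2, 3 and 4. The groups overlapped, and the difference of -0.72 had an adjusted p of 0.185 by limma. A second tested probe of Ctsd differed by -1.09. Ctse, an intracellular protease, differed by 0.08 and Pgc, which encodes progastricsin, by -0.10.

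Of 28 genes described as acting on renin transcription, 25 were tested by limma and 0 passed. At an unadjusted p under 0.05 there were 2, beside 14.5% of all items, and the median difference was -0.01. Rbpj itself, which encodes RBP-J, was well above background on no array, so its level could not be compared. Creb1, which binds cAMP response elements, differed by 0.08, the oxysterol receptor gene Nr1h3 by 0.06 and the vitamin D receptor gene Vdr by 0.24.

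Of 20 markers of renin cells and vascular wall cells, 14 were tested by limma and 0 passed, with 5 lower at an unadjusted p under 0.05, where 11.3% of all items were lower. Their median difference was -0.19. Relative to each marker's control mean, the median was -0.14, -0.11 and -0.30 on PB-NICD arrays, against 0.03, 0.16, -0.18 and -0.04 on control arrays. The groups thus overlapped in this median of the whole list. The 5 lower genes were all muscle genes: Cnn1, Acta2, Myh11 at -0.56, Des at -0.55 and Tagln at -0.35. Smtn, also of smooth muscle, differed by -0.15 and was not among them. Myh11, Tagln, Cnn1 and Des had every PB-NICD array below every control array, 4 of the 14, beside 13.3% of all items. Akr1b7, an aldo-keto reductase that marks renin cells of the mouse kidney, was well above background on no array, PB-NICD or control. Gja5, a gap junction gene of renin cells and endothelium, differed by 0.10. The smooth muscle actin gene Acta2 read 1.85, 1.31 and 1.59 on PB-NICD arrays, against 2.34, 2.59, 1.76 and 2.14 on control arrays, a difference of -0.63 with an adjusted p of 0.176 by limma. Cnn1, a calponin of smooth muscle chosen after its values were seen, differed by -0.84, with an adjusted p of 0.0644 by limma. Both passed when slide was a fixed block, at adjusted p = 0.045 for Acta2 and 0.0232 for Cnn1 by limma, among 7.28% of items called in that fit. With slide as a random block Acta2 did not pass (adjusted p = 0.084 by limma) and Cnn1 did (adjusted p = 0.0316). Cnn1 also passed without the array labelled PB-NICD 1 (adjusted p = 0.0299).

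Markers of the prostate and of other organs that make renin were also read. All 9 luminal epithelial markers were well above background on all arrays. Pbsn, or probasin, a luminal secretory gene, averaged 9.60 ± 0.56 (SD, n = 3) in PB-NICD prostates and 10.79 ± 0.79 (SD, n = 4) in controls, with an adjusted p of 0.187 by limma. None of these 9 passed, with 3 lower at an unadjusted p under 0.05 by limma, where 11.3% of all items were lower. These 3 were Pbsn, Krt18 at -0.56 and Tmprss2 at -2.06, and the 9 ranged from -2.06 to 0.13. Relative to each marker's control mean, the luminal median was -0.72, -0.17 and -0.05 on the arrays labelled PB-NICD 1, 2 and 3. It was 0.12, 0.02, -0.06 and 0.08 on controls 1 to 4, so the groups overlapped. Of 5 basal markers, 2 fell, beside 2.31% of all items, with Krt5 at -1.84 and Krt15 at -1.41. Of 3 tested urothelial markers, 1 rose, where 0.413% of all items rose. It was Upk3a, at 4.83 (adjusted p = 0.0014 by limma), with values on 2 arrays of each group. The others did not pass: Upk1b differed by -1.16 (adjusted p = 0.54 by limma) and Upk2 by 0.07. The median of the basal markers, relative to each marker's control mean, was -0.66, -0.70 and -0.41 on PB-NICD arrays, against -0.01, 0.12, -0.10 and -0.03 on control arrays. These markers differed beside renin, and their part in its difference was not tested. None of 2 endothelial and 3 immune markers passed by limma. At an unadjusted limma p under 0.05 there were 1 endothelial and 0 immune, beside 14.5% of all items.

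Of 7 kidney markers, 6 were tested by limma and 0 passed, with 0 at an unadjusted p under 0.05 and a median difference of 0.11. The 6 tested kidney markers ranged from -0.15 to 0.42. Of 8 submandibular gland markers, 6 were on the array and 3 were tested. Prol1 and Dcpp1 were well above background on no array. Of the 3 tested, 1 rose, where 0.413% of all items rose. It was Aqp5, a water channel also found in other glands, at 1.77 (adjusted p = 0.0105 by limma). Egf, the epidermal growth factor gene, was lower on every PB-NICD array, at 0.12, 1.58 and 2.49 against 3.01, 2.61, 4.79 and 4.54 on control arrays. Its difference of -2.34 did not pass, with an adjusted p of 0.0973 by limma. As for renin, the Egf ratios of slide 2 controls were above those of slide 1 controls.

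The genes whose pattern over the arrays was nearest to that of the renin probes were found by the smallest root mean square difference of log2 ratios, after each gene's control mean was subtracted. For the brightest Ren1 probe only 4 arrays had values, and the nearest of 7532 named genes were 9530003J23Rik at 0.153, Mt1, a metallothionein, at 0.274, Slc22a17 at 0.292, Slc66a2 at 0.295 and Mybpc3 at 0.304, with r of 0.98 to 0.998. With outlier spots kept, all 7 arrays had values, and the nearest were Ramp3, Mybpc3, Slc66a2, Slc22a17 and 9530003J23Rik. Of the first 5 genes, 4 are thus also in the second list, and Mt1 is not.

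For Ren2, over 7 arrays and 7531 genes, the nearest were the complement protease gene C1s2 at 0.722, Neurl4 at 0.748, Ms4a5 at 0.837, Cd4 at 0.944 and C1ra, another complement protease gene, at 0.953, with r of 0.946 to 0.962. These genes share the arrays, the 2 groups and the reference with renin, and were chosen for their likeness, so the values are a description.

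**Figure D5:**
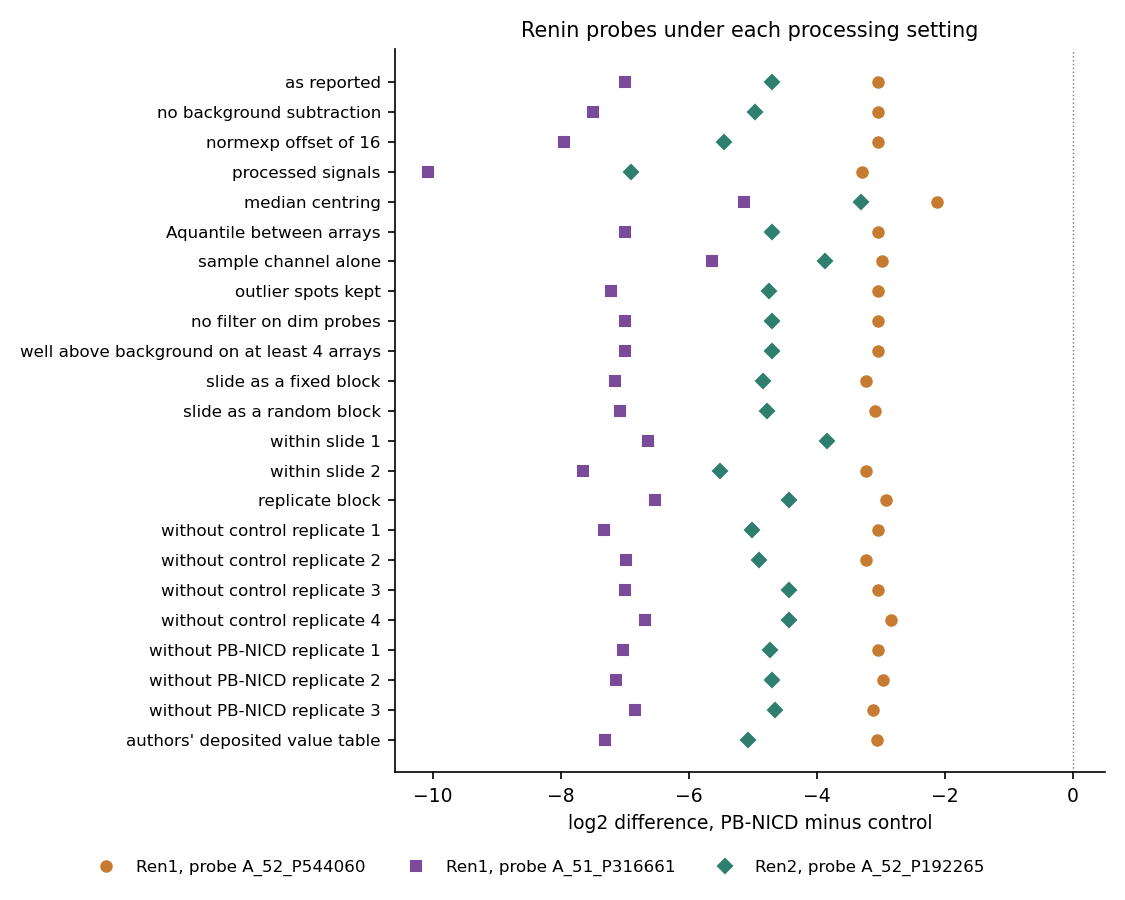
The difference of PB-NICD minus control in log2 ratio is plotted for the 3 renin probes under each processing setting. Every point lies below 0, from -10.08 for the second Ren1 probe with processed signals to -2.12 for the brightest Ren1 probe with median centring.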

How the data were processed

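Per the file headers, Agilent Feature Extraction 10.7.3.1 read the spots. Deposited intensity values used here are median spot and background signals, which are not normalized, and processed signals, after the software's own background subtraction and dye normalization. The deposited LogRatio column is log10 of red over green, per the file headers, and served to check direction. The other deposited columns are flags of 0 or 1 for spots well above background, saturated or outlying. The authors' value table is on a log2 scale, from its values, with column medians of -0.02 to -0.01; how it was normalized is not stated in the labels or headers. Its columns correlated at r = 0.849 to 0.895 with their own array's log2 ratio, so scale and direction match, and its centring is near 0.

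Signals were corrected by normexp (offset 50) and loess in limma 3.58.1 under R 4.3.3, with control and outlier spots at weight 0 and outlier spots then missing. Of 45018 spots, 1639 were controls. Tested probes had a prostate channel well above background on 3 or more arrays and at least 2 values in each group; the brightest probe stood for a gene. The offset understates changes of dim probes. Names came from the RefSeq table of GRCm38.p6 through accessions without versions: 24375 probes received a symbol and 16799 did not. Promoter coordinates are those of that table, a later build than the array design. Of the member probes, 8 of 10 passed this filter, and no test result is given for any member. The PB-NICD against control test used lmFit and eBayes, two-sided, with Benjamini-Hochberg adjustment over 16939 items at a threshold of 0.05. Slides are those that the file headers identify. P-values measure only the spread between these samples. Members and lists were chosen with earlier results of these data known. Of each list, genes past the threshold and up to 6 central to the pathway are named; a few are not reported here. The alternatives changed the background correction, normalization, filter, outlier spots, slide or replicate block, and the arrays included.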

Additional observations from a re-analysis of the deposited data

How the results depend on the processing

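The 3 renin probes were lower in PB-NICD under all settings run. The brightest Ren1 probe, A_52_P544060, ranged from -3.29 to -2.12 over 21 settings, the other, A_51_P316661, from -10.08 to -5.13 over 22, and Ren2 from -6.90 to -3.31 over 22. Scaling between arrays and the changes of filter could not move the difference of a probe, so fewer settings than these counts put it to trial. Processed signals gave -3.29, -10.08 and -6.90 in this order, and median centring gave -2.12, -5.13 and -3.31, while it moved the median of all items to 0.15 against -0.04 with loess; relative to that median the values were -2.26, -5.27 and -3.45. An offset of 16 gave -7.94 for A_51_P316661 and -5.44 for Ren2, the normalised prostate channel gave -5.63 and -3.87, and slide 2 alone gave -7.65 and -5.51. Slide 1 alone gave -3.84 for Ren2 and no value for A_52_P544060, an outlier spot there on PB-NICD 1, and within it no count could be tested. Leaving out 1 array gave -3.23 to -2.84, -7.33 to -6.68 and -5.01 to -4.43. For A_52_P544060 the arrays with an outlier spot were already missing, so leaving them out changed nothing. Leaving out any other array left 1 array in a group for that probe. Replicate numbers did not pair the samples: deviations of same-numbered arrays correlated at 0.36, -0.40 and 0.22. With a replicate block the renin differences were -2.92, -6.53 and -4.43, the pathway count was 1, the other 3 counts were 0, and over all items 44 were higher and 207 lower, against 70 and 391. The pathway count of 1 became 4 without background subtraction, 2 with processed signals, 0 with median centring, where Prcp had -0.95 (limma adjusted p = 0.841), 2 with slide as a fixed block (Atp6ap1 and Prcp), 2 within slide 2 (Mme and Prcp, with 5.57% of items called), 3 without PB-NICD 1 (Klk1, Mme and Prcp) and 10 in the authors' value table. Leaving out 1 array gave 1 to 3. The count of 0 renin cell and vascular wall markers became 1 without background subtraction, with outlier spots kept, with slide as a random block, without control 4 or without PB-NICD 1, each time Cnn1, 2 with slide as a fixed block, and 3 in the authors' table. The count of 0 regulators became 2 without background subtraction, 1 with processed signals and 8 in the authors' table; that of 0 aspartic proteases became 1 and 2 without background subtraction and in the authors' table. These settings also moved the calls over all items: 0 higher and 1 lower with median centring, 615 and 828 without background subtraction, 496 and 637 with processed signals, 183 and 1049 with a fixed slide block, 140 and 758 with a random one, 489 and 524 without PB-NICD 1, and 1271 and 1931 in the authors' table. The causes were not tested. The sign of the small differences of Agt, both Agtr1a probes and Atp6ap2 turned under 1, 2, 4 and 1 of 22 settings. The dim prostate channel limits Agt, Agtr2, Rbpj and Akr1b7, whose levels could not be compared.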
